A study of Mus musculus with 27 samples.

Results

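The genes described here encode the chains of the integrins and the laminins, the receptors and the basement membrane proteins that tie an epithelial cell to its matrix. They were taken by gene symbol from the deposited expression tables, as all integrin α (Itga), integrin β (Itgb) and laminin α, β and γ (Lama, Lamb and Lamc) chain genes, whether or not they were expressed. This gave 37 genes of 24892 symbols, made up of 18 integrin α chains, 8 integrin β chains, 5 laminin α chains, 3 laminin β chains and 3 laminin γ chains. The rule reads symbols only, although the family was picked with earlier results of these data known.

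The cells were NMuMG, an established mouse mammary epithelial cell line that undergoes epithelial-to-mesenchymal transition (EMT) when given TGF-β. Parental NMuMG cells were untreated or given TGF-β for 8 h or for 24 h, at 1 to 5 ng/ml per the labels, and RNA-seq was run on 2 libraries per time point, 6 in all. A further 12 RNA libraries, 2 per group, came from NMuMG cells that had been infected and selected with puromycin and carried either an irrelevant shRNA (control) or a shRNA against lamin B1 (KD), with the same 3 time points for each shRNA. The KD is partial, and infected cells are a selected population rather than the parental culture, so that parental and infected cells were analysed in separate tables. Lamin B1 ChIP-seq and ATAC-seq, an assay of accessible chromatin, were each run on 1 library of parental cells per time point, so that peaks have no replicate check. Expression values are FPKM (mapped fragments scaled to transcript length and library size), which allow genes to be set side by side per length.

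An integrin is a receptor made of an α and a β chain that spans the plasma membrane, binds matrix outside the cell and holds actin, or in hemidesmosomes keratin filaments, inside it. A laminin is a cross-shaped trimer of an α, a β and a γ chain that polymerises into the basement membrane beneath epithelia. In the mammary gland the laminin-binding integrins with Itga3 and Itga6 keep luminal and basal cells on the basement membrane, and the fibronectin receptor formed by Itga5 and Itgb1 is a familiar feature of mesenchymal cells.

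Replicate libraries correlated with r of 0.981 to 0.99 in the parental table and 0.96 to 0.983 in the shRNA table, and the lowest value belonged to the KD cells at 24 h. The 10 most abundant genes took 25.0% to 34.1% of the FPKM sum of a parental library and 11.4% to 40.4% of that of an infected library. The tables hold no read counts. The relative depth read from the steps between low values was 92.8% to 116% of the first library in parental cells and 78.9% to 112% in infected cells. Ratios outside a set range were left out beforehand, so this estimate could not show a large difference in depth. For the second untreated KD library it rested on 36 genes. The epithelial keratin Krt8 stood at 2024 FPKM or more in each parental library. Krt19, another epithelial keratin, went from 1005 and 982 FPKM in untreated parental cells to 363 and 501 FPKM at 8 h and finally 55.5 and 69.1 FPKM at 24 h, and E-cadherin (Cdh1) from 113 and 119 FPKM to 39.4 and 41.1 FPKM at 24 h. The list of 6 epithelial markers, most of it Krt8 and Krt18, summed to 4840 to 4930 FPKM in untreated parental cells, 5010 to 5240 FPKM at 8 h and 4330 FPKM in both libraries at 24 h. Epcam lay between 0.171 and 1.17 FPKM over all parental libraries, and Cldn4 at or below 0.147 FPKM in the untreated ones. Thus 2 of 6 epithelial markers were all but absent from the untreated line. Unlike Krt19 and Cdh1, Cldn4, Krt18 and Krt8 were higher in every treated parental library than in the untreated ones. Cldn4 reached at least 4.15 FPKM by 8 h and at least 7.69 FPKM by 24 h. Krt18 did not exceed 1776 FPKM before treatment, and its lower 24 h library had 2068 FPKM. Epcam was above its untreated level at 8 h and below it at 24 h. Of 6 leukocyte markers, Cd68 was the only one to reach 1 FPKM in parental cells, Ptprc was at or below 0.0178 FPKM, and the summed level of the list was 1.66 to 1.67 FPKM in untreated cells, 1.56 to 1.81 FPKM at 8 h and 2.89 to 2.9 FPKM at 24 h. No endothelial or platelet marker reached 1 FPKM in either table. Among 5 fibroblast markers, Pdgfrb, Col3a1 and Dcn reached 1 FPKM in parental cells and the list summed to 5.3 to 5.78 FPKM in untreated cells, 6.06 to 6.35 FPKM at 8 h and 8.01 to 8.07 FPKM at 24 h. In control cells it summed to 0.0837 to 0.171, 0.446 to 0.505 and 1.28 to 1.49 FPKM at the same times, and in KD cells to 0.103 to 0.107, 0.735 to 0.768 and 1.44 to 1.94 FPKM, with Lum listed at 0. The groups at different times did not overlap in any of these cells. The part of the epithelial, leukocyte and fibroblast lists in the responses to TGF-β described below was not tested.

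The stretch of 160 bases before the annotated start is shown for the integrin chains with contrasting responses to TGF-β, the rising Itga5, Itgb1, Itgb5 and Itgb3 and the falling Itgb7 and Itgb4. The sequences were read from mm9 on the strand of the gene, 5′ to 3′, with starts from GENCODE M1, and capitals mark any match on either strand to an AP-1 motif (TGANTCA), a TEAD motif (CATTCC), a GC box (GGGCGG) or the E-box bound by ZEB and SNAIL repressors (CAGGTG).
Itga5, chr15:103197195-103197354, minus strand: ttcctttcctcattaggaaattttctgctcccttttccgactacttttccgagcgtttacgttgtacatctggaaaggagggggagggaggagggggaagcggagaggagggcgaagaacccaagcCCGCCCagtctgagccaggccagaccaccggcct
Itgb1, chr8:131209394-131209553, plus strand: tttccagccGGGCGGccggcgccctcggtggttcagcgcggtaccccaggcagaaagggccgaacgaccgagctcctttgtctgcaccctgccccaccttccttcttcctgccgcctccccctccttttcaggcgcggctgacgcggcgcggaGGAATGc
Itgb5, chr16:33829591-33829750, plus strand: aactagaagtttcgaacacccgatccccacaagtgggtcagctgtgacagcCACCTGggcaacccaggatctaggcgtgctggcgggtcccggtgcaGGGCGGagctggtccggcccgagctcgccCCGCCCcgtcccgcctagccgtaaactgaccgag
Itgb3, chr11:104469210-104469369, plus strand: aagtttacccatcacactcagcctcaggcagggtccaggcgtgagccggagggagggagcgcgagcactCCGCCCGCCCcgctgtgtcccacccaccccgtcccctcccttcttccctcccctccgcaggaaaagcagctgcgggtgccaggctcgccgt
Itgb7, chr15:102062367-102062526, minus strand: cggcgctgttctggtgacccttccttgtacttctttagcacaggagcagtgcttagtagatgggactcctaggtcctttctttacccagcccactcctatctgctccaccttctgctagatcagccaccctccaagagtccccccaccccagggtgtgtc
Itgb4, chr11:115835863-115836022, plus strand: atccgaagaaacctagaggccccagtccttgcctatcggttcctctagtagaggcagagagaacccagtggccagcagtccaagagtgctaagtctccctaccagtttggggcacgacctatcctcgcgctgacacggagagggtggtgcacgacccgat

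The rising chains shown hold GC boxes in these stretches and the Itgb7 and Itgb4 stretches hold no match to any of the 4 motifs. These 6 genes were picked by their response and the contrast did not extend to the other members. Of chains that fell at 24 h, Lamc1, Lama5 and Itga3 also hold GC boxes within the longer window described next, whereas Lamb3, which rose, holds none. Over the window of 250 bases before to 50 bases after the start, a GC box was found in 19 of the 37 members and in 44.5% of the 21039 promoters placed on mm9. An E-box was found in 8 members (19.7% of all promoters), a TEAD motif in 5 members (13.6% of all promoters) and an AP-1 motif in 1 member, the leukocyte integrin Itgax (7.01% of all promoters). The 8 promoters with the E-box included those of Itga3, Itgb5, Lama5 and Lamb3, and the 5 with the TEAD motif included that of Itgb1. The GC content of the window was 67.3% for Itgb1, 65.7% for Itgb5, 71.3% for Itgb3 and 58.7% for Itga5, against 56.3% for Itgb7, 54.0% for Itgb4 and a median of 55.7% over all promoters. It was 75.3% for Lamc1, 72.7% for Lama5, 65.3% for Itga3 and 58.7% for Lamb3. These matches describe the letters of the windows only, and an absent match says nothing of whether a factor acts on the gene.

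About as many chain genes were silent as were expressed. In parental cells 18 of the 37 members reached 1 FPKM in at least 2 libraries and were tested, comprising 6 integrin α chains, 6 integrin β chains and 6 laminin chains. The other 19 stayed below 1 FPKM in each of the 6 libraries, 16 of them below 0.5 FPKM and 7 below 0.1 FPKM. Itgad and Itgax, chains of leukocyte integrins, were listed at 0 in all parental libraries, and the highest value among the untested members was 0.774 FPKM for Itga7, a laminin receptor of muscle. The leukocyte chains Itgal, Itgam and Itgb2, the muscle and mesenchymal laminin chains Lama2 and Lama4, and Itgb8 were also among the untested genes. In infected cells the same 18 genes and Lama3 were tested. Lama3 reached 1 FPKM only in the KD libraries at 8 h and so passed the filter through the group where it was high, so that its calls there are no support for a difference and its values are given without a test. The highest value among the 18 untested members was 1.08 FPKM for Itga11, a collagen receptor, in a KD library at 24 h.

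In untreated parental cells Itgb1, the β chain shared by most integrins of epithelia, had the highest level of the family, with 158 and 162 FPKM in the individual libraries. Lamb3, the laminin β chain of hemidesmosomes, followed at 105 and 108 FPKM and Itga3, the α chain of a laminin receptor, at 56.7 and 58.6 FPKM. Next came Itgb7, Lamc1, Lama5, Itgb4 and Itga6, whose group means ran from 47.35 to 32.27 FPKM. Within this order the libraries of Itgb7 overlapped those of Lamc1, those of Lama5 overlapped those of Itgb4 and those of Itgb4 overlapped those of Itga6, so that these neighbours did not differ beyond their spread. After 24 h of TGF-β Itgb1 and Lamb3 still led, and Itga5, Itgb5 and Itgav held the following places at means of 104.5, 70.32 and 54.73 FPKM, with no overlap of libraries between neighbours. Exons of the tested members were almost free of other annotated genes, the exceptions being Itgav, with 5.9% of its exon length shared with a long noncoding RNA, and Itgb4, with 7.66% shared with another.

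**Figure D1:**
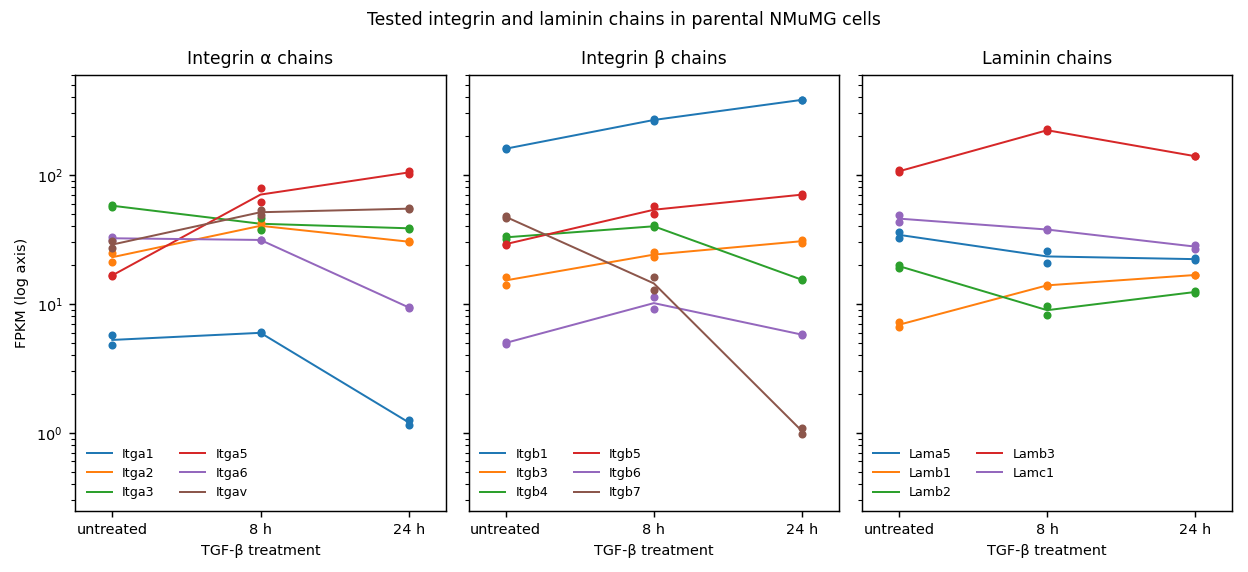
FPKM (log axis) of chains tested in parental cells, in panels for integrin α, integrin β and laminin chains, with 1 point for each library of untreated, 8 h and 24 h cells and lines through the group means. Itga5 goes from 16.6 and 16.7 FPKM to 108 and 101 FPKM and Itgb7 from 48.1 and 46.6 FPKM to 1.08 and 0.981 FPKM.

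TGF-β changed most of the expressed chains, in both directions. At 8 h 11 of the 18 tested members rose and 5 fell in parental cells, where 22.4% of all 11309 genes tested rose and 32.1% fell. After 24 h 8 members rose and 8 fell, against 33.4% and 37.1% of all genes tested. The median log2 difference of the members was 0.63 at 8 h and 0.05 at 24 h, beside −0.05 and −0.02 over all genes tested. Both comparisons use the same untreated libraries. Treated and untreated libraries did not overlap for 17 of the 18 members at 8 h and for 17 at 24 h. The share of all genes without overlap was not worked out. Here and below, a log2 difference is a difference in mean log2(FPKM + 1), a scale that understates changes of low genes, its error is a standard error, and adjusted p values come from limma with Benjamini-Hochberg adjustment over all genes of a table that were tested. In these bulk libraries, fewer cells of a type and less RNA per cell cannot be told apart.

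Among the α chains the fibronectin and vitronectin receptor chains rose, and the laminin and collagen receptor chains other than Itga2 were lower at 24 h. Itga5 stood at 16.6 and 16.7 FPKM in untreated cells, at 79.1 and 61.7 FPKM at 8 h and at 108 and 101 FPKM at 24 h. All treated libraries lay above both untreated libraries, and the log2 difference was 2.01 ± 0.1 at 8 h (limma adjusted p = 3.49e-05) and 2.58 ± 0.1 at 24 h (limma adjusted p = 1.86e-06). Itgav, the α chain of receptors for vitronectin and latent TGF-β, went from 26.9 and 30.8 FPKM to 53.9 and 48.8 FPKM at 8 h and finally 55.5 and 54.0 FPKM at 24 h. Its groups at 0 and 24 h did not overlap, with a log2 difference of 0.9 ± 0.07 (limma adjusted p = 3.4e-05), and the 24 h libraries lay just above those at 8 h, a difference that did not pass the test (limma adjusted p = 0.324).

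Itga6, which joins Itgb4 in hemidesmosomes, did not pass the test at 8 h and was lower at 24 h. Its values were 31.4 and 33.1 FPKM in untreated cells, 31.5 and 31.2 FPKM at 8 h and then 9.26 and 9.53 FPKM at 24 h. Both 24 h libraries lay below the other 4, and the level fell by 1.68 ± 0.04 on the log2 scale (limma adjusted p = 5.71e-07). Itga3 fell already at 8 h, from 56.7 and 58.6 FPKM to 37.6 and 46.1 FPKM, and stood at 39.0 and 38.1 FPKM at 24 h. Its log2 difference was −0.46 ± 0.09 at 8 h and −0.57 ± 0.09 at 24 h (limma adjusted p = 0.00384 and 0.000831), with treated libraries all below untreated ones.

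The collagen receptor chains Itga1 and Itga2 parted. Itga1 went from 4.78 and 5.73 FPKM to 5.93 and 6.01 FPKM at 8 h and finally 1.26 and 1.15 FPKM at 24 h. It fell by 1.5 ± 0.08 on the log2 scale at 24 h (limma adjusted p = 6.14e-06), with no overlap between those groups. Itga2 stood at 21.2 and 24.9 FPKM, then 42.3 and 38.3 FPKM at 8 h and then 30.1 and 30.6 FPKM at 24 h. It was highest at 8 h, where its log2 difference was 0.78 ± 0.08 (limma adjusted p = 0.000263), and it was still 0.39 ± 0.08 above untreated cells at 24 h (limma adjusted p = 0.0036).

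Of the β chains, Itgb7 showed the largest fall of any tested member. This chain pairs with Itga4 and Itgae in homing receptors of lymphocytes, and it stood at 48.1 and 46.6 FPKM in untreated cells, 12.8 and 16.04 FPKM at 8 h and finally 1.08 and 0.981 FPKM at 24 h. The 3 time points did not overlap, and the level fell by 1.66 ± 0.1 on the log2 scale at 8 h and by 4.57 ± 0.1 at 24 h (limma adjusted p = 4.18e-05 and 3.07e-07). Its known partners were close to silent, Itga4 lying between 0.0331 and 0.0521 FPKM and Itgae between 0.00883 and 0.0795 FPKM over the 6 libraries. The FPKM ratio of Itgb7 to Itga4 was accordingly 923 to 1170 in untreated cells. The leukocyte marker Ptprc was at or below 0.0178 FPKM in the same libraries, where Itgb7 reached 48.1 FPKM.

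Itgb1, Itgb5 and Itgb3 rose at both times. Itgb1 went from 158 and 162 FPKM to 274 and 259.6 FPKM at 8 h and then 383 and 381 FPKM at 24 h. The 3 time points were fully separated, with log2 differences of 0.74 ± 0.04 and 1.25 ± 0.04 from untreated cells (limma adjusted p = 3.68e-05 and 9.26e-07). Itgb5, which binds vitronectin with Itgav, went from 28.8 and 29.3 FPKM to 57.3 and 50.1 FPKM, and then to 71.5 and 69.1 FPKM, a log2 difference of 1.25 ± 0.06 at 24 h (limma adjusted p = 4.58e-06). Itgb3, another partner of Itgav, stood at 14.1 and 16.3 FPKM, then 25.1 and 23.1 FPKM, and then 31.5 and 29.8 FPKM, a log2 difference of 0.97 ± 0.08 at 24 h (limma adjusted p = 2.97e-05). For each of these chains the treated libraries lay above the untreated ones without overlap.

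Itgb4 and Itgb6 were higher at 8 h than at either other time. Itgb4, the hemidesmosomal β chain, stood at 32.1 and 33.5 FPKM, then 39.3 and 40.7 FPKM, and then 15.3 and 15.5 FPKM at the 3 times. It rose at 8 h by 0.28 ± 0.04 on the log2 scale (limma adjusted p = 0.00168) and at 24 h fell by 1.05 ± 0.04 from untreated cells (limma adjusted p = 1.99e-06), with no overlap between groups. Itgb6, the epithelial partner of Itgav that activates latent TGF-β, went from 4.87 and 5.09 FPKM to 11.2 and 9.05 FPKM at 8 h and finally 5.81 and 5.74 FPKM at 24 h. Its log2 difference was 0.89 ± 0.09 at 8 h (limma adjusted p = 0.000287), and the 24 h value of 0.18 ± 0.09 did not pass the test (limma adjusted p = 0.117).

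Among the laminin chains, Lamb3 rose at both times. Lamb3 went from 105 and 108 FPKM to 227 and 218 FPKM at 8 h and then 139.6 and 139.5 FPKM at 24 h. It rose by 1.05 ± 0.04 at 8 h and 0.39 ± 0.04 on the log2 scale at 24 h (limma adjusted p = 1.68e-05 and 9.82e-05), its 3 time points being fully separated. Lama3, the α chain of the trimer that holds Lamb3, was between 0.0262 and 0.223 FPKM in parental cells, too low to be tested. The FPKM ratio of Lamb3 to Lama3 was never under 1020 in a parental library.

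Lama5 and Lamc1, which with Lamb1 or Lamb2 build the main laminins of mature epithelial basement membranes, fell. Lama5 went from 32.4 and 36.2 FPKM to 20.9 and 25.8 FPKM at 8 h and finally 21.7 and 22.7 FPKM at 24 h, a log2 difference of −0.6 ± 0.1 at 24 h (limma adjusted p = 0.00118). Lamc1 stood at 43.1 and 48.6 FPKM, then 37.2 and 38.2 FPKM, and then 26.7 and 28.8 FPKM, a log2 difference of −0.7 ± 0.07 at 24 h (limma adjusted p = 7.17e-05). Treated libraries of both chains lay below the untreated ones. The smaller log2 difference of Lamc1 at 8 h, −0.27 ± 0.07, passed the test (limma adjusted p = 0.0114) but not without the second untreated library, where it was −0.19 (limma adjusted p = 0.057).

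Lamb1 and Lamb2, alternative β chains of those laminins, moved in opposite directions. Lamb1 went from 6.595 and 7.19 FPKM to 14.1 and 13.8 FPKM at 8 h and then 16.9 and 16.6 FPKM at 24 h. Lamb2 went from 19.1 and 20.1 FPKM to 8.24 and 9.64 FPKM, and then to 12.1 and 12.6 FPKM. Untreated libraries therefore held more Lamb2 than Lamb1 and treated libraries more Lamb1 than Lamb2, the FPKM ratio of Lamb1 to Lamb2 being 0.345 to 0.357 in untreated cells, 1.43 to 1.71 at 8 h and 1.32 to 1.39 at 24 h. On the log2 scale Lamb1 rose by 1.17 ± 0.05 and Lamb2 fell by 0.63 ± 0.07 at 24 h (limma adjusted p = 2.83e-06 and 0.000225).

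The later step of the response was compared directly, by a contrast added after the values were seen. From 8 h to 24 h 6 of the 18 tested members rose and 9 fell in parental cells, where 27.7% of all genes tested rose and 24.0% fell. Itga5, Itgb1, Itgb3, Itgb5, Lamb1 and Lamb2 were the members that rose. The members that fell included Itga1, Itga2, Itga6, Itgb4, Itgb6, Itgb7, Lamb3 and Lamc1. The log2 difference between 24 h and 8 h was −1.64 ± 0.04 for Itga6 and −1.32 ± 0.04 for Itgb4, its hemidesmosomal partner (limma adjusted p = 2.12e-06 and 3.52e-06).

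These differences gave the integrin α and β chains another make-up. Of the summed FPKM of all integrin β chains, which ran from 285.8 to 292.9 in untreated parental cells and from 502.5 to 509.4 at 24 h, Itgb1 held 55.1% to 55.2% in untreated cells, 65.1% to 65.2% at 8 h and 75.2% to 75.7% at 24 h. Itgb7 held 15.9% to 16.8% of the β sum in untreated cells, second to Itgb1, and 0.195% to 0.213% at 24 h. The share of Itgb4 went from 11.2% to 11.4% in untreated cells to 2.99% to 3.09% at 24 h, and the FPKM ratio of Itgb1 to Itgb4 from 4.83 to 4.91 to 24.5 to 25.1. These shares and ratios are ranges over the 2 libraries of a time point and were not tested.

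Among the α chains the leading place passed from Itga3 to Itga5. Itga3 held 34.2% to 35.6% of the summed α FPKM in untreated parental cells and at most 16.1% at 24 h, whereas Itga5 went from 9.76% to 10.4% in untreated cells to 26.5% to 31.5% at 8 h and 42.9% to 44.1% at 24 h. Itga6 went from 19.3% to 19.7% of the α sum to 3.79% to 4.03% at 24 h. The FPKM ratio of Itgb4 to Itga6, which pair one to one, was 1.01 to 1.02 in untreated cells, 1.25 to 1.3 at 8 h and 1.63 to 1.65 at 24 h. Lama5 made up 95.5% or more of the laminin α sum in each parental library. Lamb3 made up 79.9% to 80.3% of the laminin β sum in untreated cells, 90.3% to 91.0% at 8 h and 82.7% to 82.8% at 24 h.

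**Figure D2:**
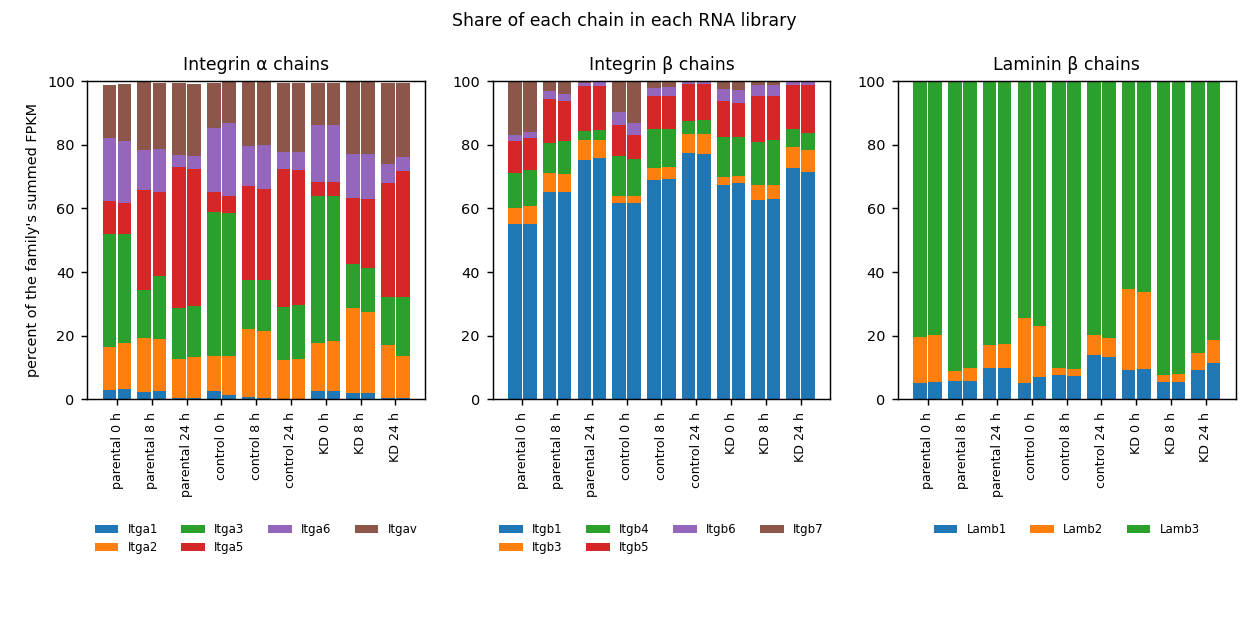
Stacked bars of the share of each tested chain in the summed FPKM of all integrin α, integrin β or laminin β chains (percent), with 1 bar for each RNA library of parental, control and KD cells at 0, 8 and 24 h. In parental cells Itgb1 goes from at most 55.2% to at least 75.2% of the β sum, and Itga5 holds more of the α sum than Itga3 in each treated library.

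Control shRNA cells, which share no library with the parental cells, gave the same calls for most members. At 8 h 11 of the 19 members tested there rose, Lama3 among them, and 5 fell, against 19.4% and 44.9% of all 11450 genes tested. At 24 h 8 rose and 10 fell, against 25.5% and 45.1%. Of the 18 members tested in both tables, 14 were called in the same direction in both at 8 h and 16 at 24 h, and none was called in opposite directions. Those without a call in both tables were Itga1, Itga6, Itgb6 and Lamc1 at 8 h and included Itgb6 at 24 h. The share of all genes called in the same direction in both was not worked out. The counts therefore do not set the members apart from other genes. The median log2 difference over all genes tested was −0.14 at 8 h and −0.13 at 24 h in control cells and −0.0246 and −0.0035 after quantile normalization, which split all calls into 3082 higher and 3624 lower at 8 h in place of 2223 and 5137, and into 3900 and 3901 at 24 h in place of 2924 and 5169. For the members the counts in each direction were the same after quantile normalization. In parental cells quantile normalization gave 3012 higher and 3043 lower over all genes at 8 h in place of 2535 and 3626, and 4079 higher and 3895 lower at 24 h in place of 3781 and 4194.

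Some chains differed in level between the infected and the parental cells, whose tables were made separately and are set side by side only as values. Untreated control cells had 9.79 and 9.84 FPKM of Itga5 and 6.75 and 6.82 FPKM of Itgb3. At 24 h they had 122 and 117 FPKM of Itga5 and 36.0 and 37.7 FPKM of Itgb3. The log2 difference at 24 h in control cells was 3.48 ± 0.05 for Itga5 and 2.28 ± 0.04 for Itgb3 (limma adjusted p = 2.19e-10 and 1.25e-09), with no overlap between groups. Itgb7 went from 28.0 and 40.9 FPKM to 10.3 and 9.15 FPKM, and then to 0.428 and 0.244 FPKM, in control cells and fell by 4.71 ± 0.15 on the log2 scale at 24 h (limma adjusted p = 2.16e-08). Itgb6 fell by 1.11 ± 0.06 there, from 11.8 and 11.2 FPKM to 5.05 and 4.56 FPKM (limma adjusted p = 3.16e-07).

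The α chains of control cells gave the following levels. Itga2 stood at 17.6 and 22.8 FPKM, 61.8 and 57.4 FPKM at 8 h and finally 34.6 and 35.1 FPKM at 24 h, with its highest values at 8 h. Itga3 stood at 71.7 and 82.7, then 45.1 and 44.8, and then 46.8 and 47.6 FPKM and Itga6 at 32.0 and 42.4, then 36.8 and 37.6, and then 15.1 and 15.8 FPKM, the latter lower at 24 h than at either other time. Itgav stood at 22.4 and 23.7, then 58.5 and 55.4, and then 60.6 and 60.5 FPKM and Itga5 at 84.6 and 78.9 FPKM at 8 h. Itga1 went from 3.97 and 2.54 FPKM to 0.271 and 0.282 FPKM at 24 h and, unlike in parental cells, was already called lower at 8 h (log2 difference −0.65 ± 0.13, limma adjusted p = 0.00244), a difference between the cells that was not tested.

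Itgb1 of control cells stood at 177 and 192 FPKM before treatment and 326 and 314 FPKM at 8 h, and Itgb3 at 18.2 and 17.1 FPKM at 8 h, between their values at 0 and 24 h. Among the laminin chains Lama5 stood at 35.0 and 33.9 FPKM before treatment and 19.98 and 18.4 FPKM at 8 h, and Lamc1 at 43.1 and 45.6 FPKM and then 38.4 and 35.2 FPKM. Lamb1 was 5.49 and 7.41, then 20.4 and 19.3, and then 21.4 and 20.8 FPKM at the 3 times and Lamb2 21.2 and 17.3, then 6.06 and 5.69, and then 9.87 and 9.21 FPKM. The order of these alternative β chains was therefore reversed after TGF-β in control cells too, Lamb2 exceeding Lamb1 in both untreated libraries and Lamb1 exceeding Lamb2 in all 4 treated ones.

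From 8 h to 24 h 5 of the 19 tested members rose and 10 fell in control cells, where 25.2% of all genes tested rose and 24.5% fell. Itga5, Itgb1, Itgb3, Itgb5 and Lamb2 rose. Lama3 stood at 0.0240 and 0.00924 FPKM in untreated control cells, 0.407 and 0.318 FPKM at 8 h and then 0.0652 and 0.0647 FPKM at 24 h, below 1 FPKM in each control library.

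The KD was checked first by its target. Lmnb1, which encodes lamin B1, stood at 29.2 and 36.5 FPKM in untreated control libraries and 9.01 and 9.27 FPKM in untreated KD libraries. At 8 h it was 32.8 and 32.1 FPKM in control and 7.79 and 8.14 FPKM in KD cells, and at 24 h 18.4 and 17.9 FPKM in control and 4.37 and 7.52 FPKM in KD cells. KD libraries lay below control libraries at each time, with differences of −1.73, −1.9 and −1.5 on the log2 scale (limma adjusted p = 0.000573, 0.000189 and 0.000901). Lmnb1 also fell with TGF-β alone at 24 h, by 0.82 ± 0.18 on the log2 scale in control cells (limma adjusted p = 0.00317).

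Most of the chains that differed between KD and control cells after TGF-β were higher in KD cells. In untreated cells 5 of the 19 tested members were higher in KD than in control cells and 4 were lower, against 10.6% and 9.09% of all genes tested. After 8 h 10 were higher, Lama3 among them, and 2 lower, against 19.3% and 16.5%. In a fit of only the groups compared 2969 of 10826 genes tested were higher and 2686 lower at 8 h, in place of 2212 and 1892 of 11450. This fit called 17 members at 8 h, 13 higher and 4 lower, Itga6, Itgb7, Lamb1, Lamb2 and Lamc1 being gained there. After 24 h 10 were higher and 0 lower, against 16.8% and 11.5%, and at an unadjusted limma p under 0.05, 2 were lower, Itga5 among them. The median log2 difference of the members was 0.15, 0.27 and 0.33 at the 3 times, beside −0.01, 0.01 and 0.02 over all genes tested. After quantile normalization 8 members were higher and 1, Itga5, was lower at 24 h, and all genes tested gave 1613 higher and 1611 lower in place of 1924 and 1317. The epithelial marker list summed to 5970 to 6290 FPKM in control and 6040 to 6070 FPKM in KD cells before treatment, to 6430 to 6710 and 5820 to 6080 FPKM at 8 h, and to 5780 to 6020 and 6130 to 7010 FPKM at 24 h. This sum is mostly Krt8 and Krt18. Cdh1 stood at 51.7 and 52.1 FPKM in control against 83.1 and 84.1 FPKM in KD cells at 8 h and at 26.8 and 27.6 against 46.6 and 60.1 FPKM at 24 h, and Epcam at 1.53 and 1.73 against 3.15 and 2.82 FPKM and then 0.671 and 0.573 against 1.21 and 1.45 FPKM. Krt19 stood at 175 and 176 against 178 and 218 FPKM at 8 h and at 18.04 and 19.6 against 22.1 and 52.6 FPKM at 24 h. KD libraries lay above control libraries for all 3 of these genes at both treated times. The rest of the list was lower in KD cells at 8 h. Cldn4 stood there at 7.71 and 7.26 FPKM in control against 3.72 and 4.27 FPKM in KD cells. Krt18 stood at 2408 and 2534 against 1894 and 2112 FPKM and Krt8 at 3789 and 3938 against 3661 and 3663 FPKM. At 24 h the groups of Cldn4 and of Krt18 overlapped, and Krt8 was higher in KD cells, at 3063 and 3200 against 3345 and 3561 FPKM. The part of these markers in the differences described next was not tested.

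Itgb5 was higher in KD cells at each time. Untreated control libraries had 27.8 and 24.1 FPKM and KD libraries 36.2 and 35.3 FPKM. The values were 49.0 and 48.2 against 82.6 and 81.3 FPKM at 8 h and finally 69.8 and 69.2 against 101 and 106 FPKM at 24 h. The groups overlapped at none of these times, and the log2 differences were 0.45, 0.74 and 0.57 (limma adjusted p = 0.00177, 9.05e-05 and 0.000495). Itgb1 was higher by 0.25, 0.19 and 0.16 on the log2 scale, at 534 and 509 FPKM in KD and 466 and 466 FPKM in control cells at 24 h (limma adjusted p = 0.00836, 0.0151 and 0.0331). Its 24 h call was lost under quantile normalization, where the log2 difference was 0.13 (limma adjusted p = 0.169), and without either control library or the first KD library at 24 h (limma adjusted p of 0.0968 to 0.14). Its 8 h call was lost without the second control library or either KD library (limma adjusted p of 0.0541 to 0.0953) and its untreated call without the second KD library (limma adjusted p = 0.07). Itgav was called higher at 8 h, with 77.8 and 77.4 FPKM in KD and 58.5 and 55.4 FPKM in control cells (log2 difference 0.44 ± 0.07, limma adjusted p = 0.00189).

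Itgb4, Itgb6 and Itga1 were called higher in KD cells at both treated times. Itgb4 stood at 35.5 and 36.6 FPKM in control and 39.7 and 39.5 FPKM in KD cells before treatment, at 57.6 and 54.5 against 78.5 and 82.2 FPKM at 8 h and at 25.3 and 25.5 against 41.0 and 37.9 FPKM at 24 h. KD lay 0.51 ± 0.05 above control at 8 h and 0.62 ± 0.05 on the log2 scale at 24 h (limma adjusted p = 0.00017 and 0.000125), while the untreated difference of 0.13 did not pass the test (limma adjusted p = 0.0863). Itgb6 was 11.8 and 11.2 FPKM in control and 12.1 and 12.9 FPKM in KD cells before treatment, 11.7 and 11.6 against 20.2 and 19.4 FPKM at 8 h and then 5.05 and 4.56 against 8.46 and 8.83 FPKM at 24 h, with log2 differences of 0.72 and 0.73 at 8 and 24 h (limma adjusted p = 8.81e-05 and 0.000126). Itga1 was 1.77 and 1.58 FPKM in control and 6.68 and 6.30 FPKM in KD cells at 8 h, the largest KD difference of any member at that time (1.49 ± 0.13 on the log2 scale, limma adjusted p = 0.000143). In none of the treated comparisons of these chains did KD and control libraries overlap. At 8 h the same was true of all 19 tested members, called or not, so it does not set these chains apart.

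Itgb7 was lower in KD cells before TGF-β was added. Control libraries had 28.0 and 40.9 FPKM and KD libraries 8.58 and 9.37 FPKM, without overlap, a log2 difference of −1.8 ± 0.15 (limma adjusted p = 0.000178). At 8 h the values were 10.3 and 9.15 FPKM in control and 7.04 and 7.25 FPKM in KD cells and at 24 h 0.428 and 0.244 against 0.226 and 0.183 FPKM, differences that did not pass the test (limma adjusted p = 0.072 and 0.498). That at 8 h passed in the fit of only the groups compared (−0.39, limma adjusted p = 0.0028). Itgb7 held 9.74% to 13.1% of the β sum in untreated control cells and 2.68% to 2.87% in untreated KD cells. Itga5, the member that rose most with TGF-β, differed little, its log2 difference between KD and control being −0.18 ± 0.05 before treatment, −0.17 ± 0.05 at 8 h and −0.11 ± 0.05 at 24 h (limma adjusted p = 0.026, 0.0209 and 0.0941). The untreated call was lost when any of the 4 libraries compared was left out (limma adjusted p of 0.0525 to 0.139), and the 8 h call without the first control or the first KD library (limma adjusted p = 0.148 and 0.127).

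Lamb3 was higher in KD than in control cells after TGF-β. Lamb3 stood at 78.0 and 83.2 FPKM in control and 60.9 and 61.6 FPKM in KD cells before treatment, at 244 and 239.8 against 289.7 and 287 FPKM at 8 h and at 123 and 126 against 178 and 171 FPKM at 24 h. It was lower in untreated KD cells and higher in treated ones, with log2 differences of −0.39, 0.25 and 0.48 (limma adjusted p = 0.000553, 0.00202 and 0.000163), and KD and control libraries overlapped at no time. Lama3 reached 1.25 and 1.14 FPKM in KD cells at 8 h, the values through which it passed the filter, where control cells had 0.407 and 0.318 FPKM, and made up 6.54% to 6.98% of the laminin α sum in KD and 1.7% to 1.99% in control cells.

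Of the other laminin chains, Lamc1 was called higher in KD cells at 24 h, with 31.6 and 42.0 FPKM against 21.0 and 22.1 FPKM in control cells (log2 difference 0.73 ± 0.11, limma adjusted p = 0.0022), a call lost in the fit of only these groups (limma adjusted p = 0.0594). The KD libraries at 24 h differed more from each other than other replicates did. Lama5 stood at 16.2 and 24.6 FPKM in them against 14.9 and 16.4 FPKM in control cells, without a call (limma adjusted p = 0.142), and without the first KD library its log2 difference was 0.62 (limma adjusted p = 0.00172). Lamb2 was called higher at 24 h by 0.4 ± 0.12 on the log2 scale (limma adjusted p = 0.0357), a call lost without the second KD library (0.22, limma adjusted p = 0.147) or without either control library. Itga3, Itga6, Lama5 and Lamb1 had no KD call at any time, although in the fit of only the groups compared Itga6 was called higher at 8 h (0.34, limma adjusted p = 0.000538) and Lamb1 lower (−0.22, limma adjusted p = 0.00755). That fit also called Lamb2 and Lamc1 higher at 8 h (0.27 and 0.22, limma adjusted p = 0.00488 and 0.0129). Lama5 was 36.3 and 35.7 FPKM in untreated KD cells and 17.8 and 15.2 FPKM at 8 h, and Lamb1 was 8.54 and 8.88, then 16.7 and 17.2, and then 19.2 and 24.1 FPKM at the 3 times. Lamb2 was 23.8 and 22.5, then 7.31 and 7.29, and then 11.3 and 14.7 FPKM, and Lamc1 was 51.4 and 49.96 FPKM before treatment and 44.2 and 41.9 FPKM at 8 h.

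Of the remaining integrin chains, Itgb3 was called higher in KD cells at each time and Itga3 and Itga6 at none. Itga2 in KD cells stood at 28.4 and 30.8 FPKM before treatment, 91.9 and 86.5 FPKM at 8 h and finally 50.3 and 38.6 FPKM at 24 h, and was called higher than control before treatment and at 8 h (log2 differences 0.54 and 0.57, limma adjusted p = 0.0252 and 0.0115). The 8 h call was lost without the second control or the first KD library, and the untreated call without the first control or either KD library (limma adjusted p of 0.0675 to 0.141). Itgb3 in KD cells was 7.69 and 7.66, then 25.4 and 25.2, and then 48.3 and 49.2 FPKM, with KD above control at each time by 0.16, 0.49 and 0.39 on the log2 scale (limma adjusted p = 0.034, 0.000119 and 0.000573). Its groups did not overlap, although the untreated call was lost without any of the 4 untreated libraries (limma adjusted p of 0.0699 to 0.158).

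Itga1 in KD cells was 4.89 and 4.90 FPKM before treatment and 1.00 and 0.845 FPKM at 24 h, called higher than control at both (limma adjusted p = 0.034 and 0.0129), but not before treatment without the second control or either KD library and not at 24 h without either control library (limma adjusted p of 0.0626 to 0.145). Itgav in KD cells was 25.2 and 26.1 FPKM before treatment and 77.5 and 65.9 FPKM at 24 h, where its call (limma adjusted p = 0.0351) was lost without either control library or the first KD library (limma adjusted p of 0.089 to 0.138). Itgb1 in KD cells was 216 and 222 FPKM before treatment and 361 and 367 FPKM at 8 h. The laminin receptor chain Itga3 was 86.7 and 89.8, then 48.1 and 46.9, and then 46.3 and 53.4 FPKM at the 3 times and Itga6 was 33.4 and 34.9, then 47.4 and 47.2, and then 18.2 and 13.1 FPKM. Itga5 in KD cells was 8.49 and 8.58, then 71.1 and 74.1, and then 108 and 113 FPKM, with all treated KD libraries above the untreated ones.

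**Figure D3:**
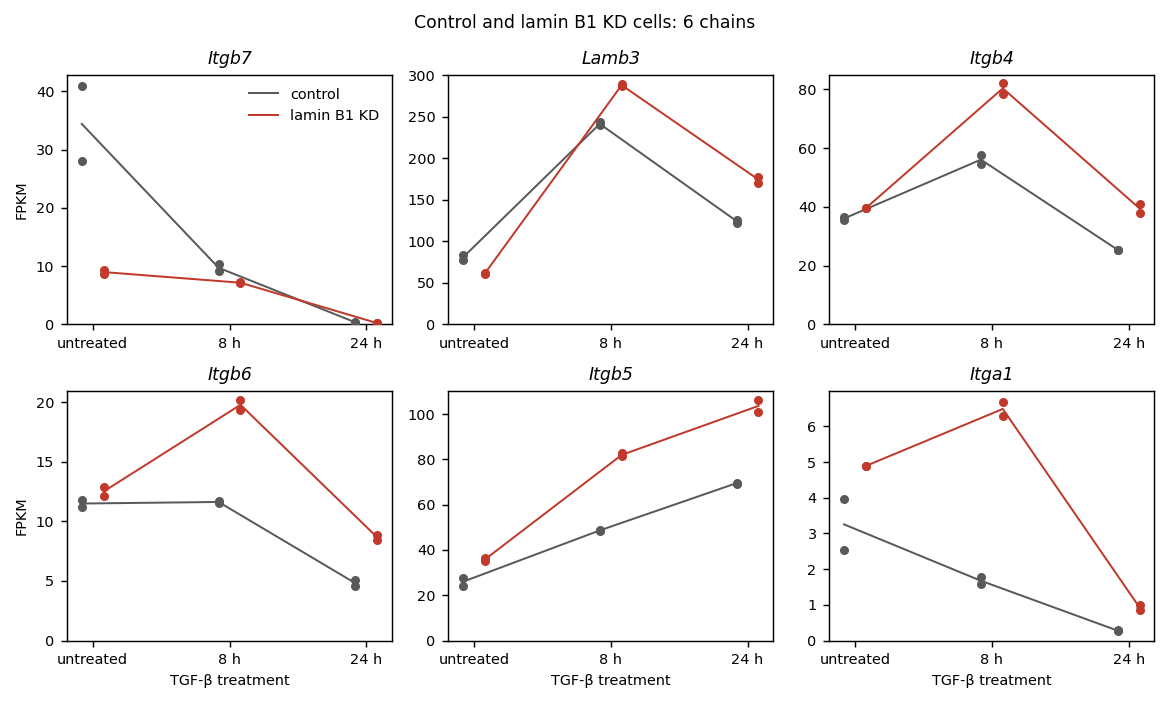
FPKM (linear axis from 0) of Itgb7, Lamb3, Itgb4, Itgb6, Itgb5 and Itga1 in control and KD cells, untreated and after 8 h and 24 h of TGF-β, with 1 point per library and lines through the group means. KD points lie below control points for Itgb7 and Lamb3 in untreated cells and above them for the other 4 chains at 8 h and 24 h.

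Whether TGF-β acted differently on KD and control cells was tested as the difference between both responses. At 8 h 7 of the 19 tested members had a higher response in KD cells and 0 a lower one, against 2.45% and 1.61% of all genes tested, and at 24 h 4 had a higher one and 0 a lower one, against 2.73% and 1.98%. At an unadjusted limma p under 0.05, 1 member (Lamb1) had a lower response at 8 h and 0 at 24 h. The members at 8 h were Itga1, Itgb3, Itgb4, Itgb6, Itgb7, Lamb3 and Lama3, the last of which passed the filter only through the KD libraries at 8 h, and those at 24 h were Itgb4, Itgb6, Itgb7 and Lamb3. For Lamb3 the difference in response was 0.64 ± 0.06 at 8 h and 0.87 ± 0.06 on the log2 scale at 24 h (limma adjusted p = 0.00237 and 0.000283). For Itgb7 it was 1.41 ± 0.21 and 1.66 ± 0.21 (limma adjusted p = 0.0183 and 0.00604), a smaller fall in cells that began lower. Both times share the untreated libraries. At 8 h the calls of Itga1, Itgb3, Itgb4, Itgb6 and Itgb7 were lost when any of 6 libraries was left out, namely both untreated KD, both 8 h control and both 8 h KD libraries. Each of these fits leaves 1 library in a group, and most calls over all genes tested were lost there too. Without an 8 h KD library Lama3 was too low to be tested. At 24 h the call of Itgb4 was lost without either untreated KD library or the first control library at 24 h (limma adjusted p of 0.0535 to 0.0556).

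**Figure D4:**
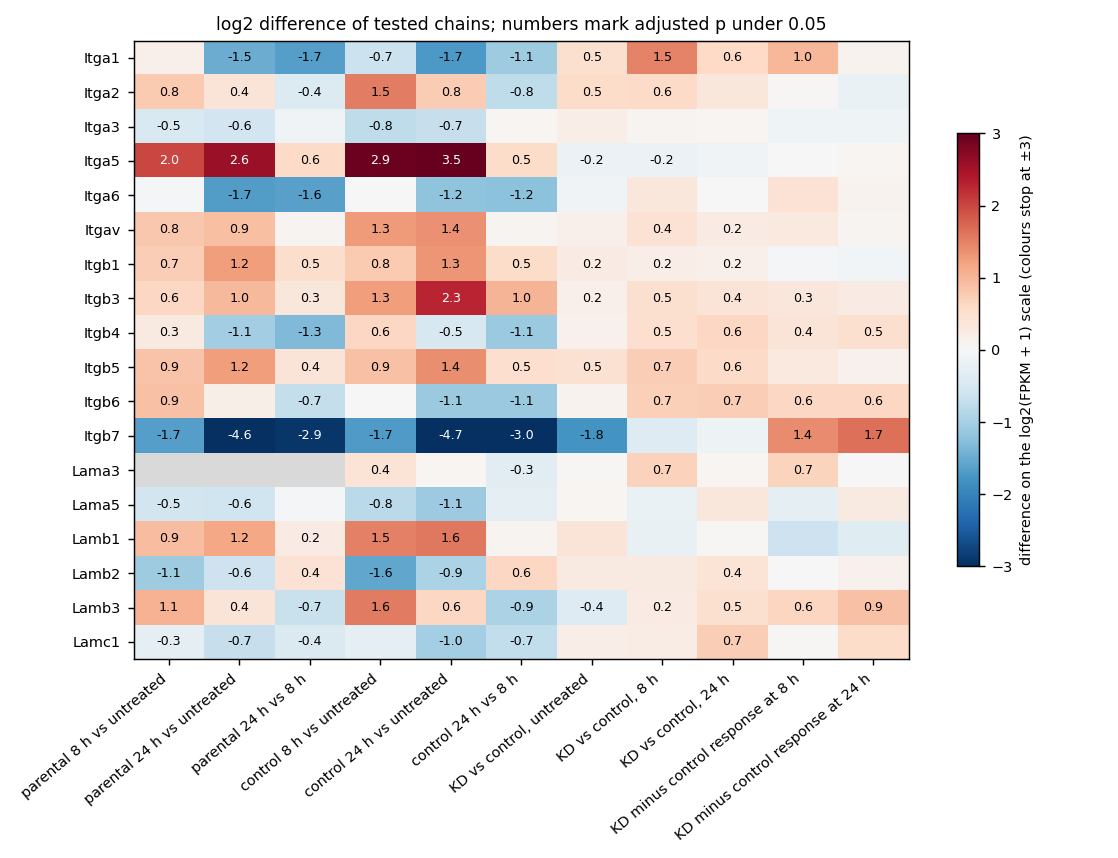
Heat map of the log2 difference, in log2(FPKM + 1) units, of chains tested in either table (vertical) in each of the 11 comparisons (horizontal), with colours that stop at 3 in either direction, a printed value where limma's adjusted p was under 0.05 and grey where Lama3 was not tested. The values of Lama3 are descriptions only. Itgb7 has the lowest values, −4.57 in parental and −4.71 in control cells at 24 h, and Itga5 the highest, 2.58 and 3.48.

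Most listed cytoplasmic partners of integrins rose with TGF-β. Of 26 listed adhesion adaptors, the proteins that link integrin tails to actin and signalling, 24 were tested in parental cells, 19 rose and 2 fell at 8 h, and 21 rose and 1 fell at 24 h, beside the 22.4% and 32.1% of all genes tested that rose and fell at 8 h and the 33.4% and 37.1% at 24 h. The 1 that fell at 24 h was Ptk2, focal adhesion kinase, named after its value was seen, at 41.4 and 42.6 FPKM in untreated cells and 38.9 and 36.4 FPKM at 24 h. Zyx, zyxin of mature focal adhesions, went from 25.7 and 26.6 FPKM to 149.5 and 132 FPKM, with no overlap, a log2 difference of 2.38 ± 0.08 (limma adjusted p = 8.96e-07). The other leading adaptors were Tns1 (tensin), Rsu1, which binds the Lims1 (PINCH) protein, and Tln2 (a talin), with log2 differences of 2.02, 1.62 and 1.58 at 24 h (limma adjusted p = 8.96e-07, 4.2e-07 and 1.55e-06). The median log2 difference of the list was 0.34 at 8 h and 0.69 at 24 h in parental cells, beside −0.05 and −0.02 over all genes tested. In control cells, where 19.4% of all genes rose and 44.9% fell at 8 h and 25.5% and 45.1% at 24 h, 18 rose and 2 fell at 8 h, and 20 rose and 0 fell at 24 h, where 0 were lower at an unadjusted limma p under 0.05 either and Parva, Ptk2, Actn4 and Itgb1bp1 had no call.

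Of the 24 adaptors tested, 2 were higher and 3 lower in KD than in control cells before treatment, 4 higher and 7 lower after 8 h, with 5 higher and 5 lower after 24 h. Over all genes tested 10.6% were higher and 9.09% lower before treatment, 19.3% and 16.5% after 8 h and 16.8% and 11.5% after 24 h. The median log2 difference of the list was −0.07, −0.14 and 0.01 at the 3 times, beside −0.01, 0.01 and 0.02 over all genes. Lims1, singled out after its values were seen, was 17.1 and 17.9 FPKM in untreated KD cells and 47.6 and 50.7 FPKM in untreated control cells, with log2 differences of −1.44, −1.24 and −1.37 at the 3 times (limma adjusted p = 1.81e-06, 2.76e-06 and 1.99e-06). KD and control libraries of Lims1 did not overlap at any time. Over all genes tested a higher response in KD cells was called for 2.45% at 8 h and 2.73% at 24 h and a lower one for 1.61% and 1.98%. Among the adaptors it was called for Tns3 at 8 h, lower in KD cells, and for Itgb1bp1 at 24 h, higher in KD cells.

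Partners of laminins in the basement membrane and in hemidesmosomes gave calls in both directions. Of 18 listed genes 16 were tested in parental cells, 5 rose and 4 fell at 8 h, and 9 rose and 5 fell at 24 h, with a median log2 difference of −0.08 and then 0.28, beside −0.05 and −0.02 over all genes tested. The shares of all genes that rose and fell were 22.4% and 32.1% at 8 h and 33.4% and 37.1% at 24 h. Ntn4, a laminin-related netrin, stood at 4.15 and 3.99 FPKM in untreated cells and 11.6 and 10.96 FPKM at 24 h (log2 difference 1.28 ± 0.06, limma adjusted p = 2.49e-06). Nid2, a nidogen that bridges laminin and collagen IV, went from 1.85 and 1.85 FPKM to 0.396 and 0.567 FPKM, and it is given without a test because it reached 1 FPKM in the untreated libraries alone and passed the filter through them, although it enters the counts. Dst (dystonin) rose by 0.63 ± 0.13 and Ltbp3, a latent TGF-β binding protein, by 0.62 ± 0.04 on that scale (limma adjusted p = 0.00381 and 1.39e-05). In infected cells too Nid2 reached 1 FPKM in untreated libraries alone and enters the counts. In control cells 6 of 16 rose and 7 fell at 8 h, and 8 rose and 5 fell at 24 h, beside 19.4% and 44.9%, and then 25.5% and 45.1%, of all genes tested. In KD against control cells 6 were higher and 0 lower before treatment (1 lower, Npnt, at an unadjusted limma p under 0.05), 6 higher and 1 lower after 8 h, with 7 higher and 1 lower after 24 h, beside shares of all genes of 10.6% and 9.09%, 19.3% and 16.5%, and 16.8% and 11.5%. The collagen IV chains Col4a1 and Col4a2 were higher in KD cells at all 3 times. A difference in response was called for 0 of the 16 at 8 h (4 at an unadjusted limma p under 0.05), and for Dag1 (dystroglycan) at 24 h.

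Most of the tested integrin ligands rose, and the adhesion receptors among them that were tested fell. Of 21 listed symbols 19 were in the parental table and 15 were tested, 8 rose and 4 fell at 8 h, and 10 rose and 4 fell at 24 h, with a median log2 difference of 0.25 and then 0.82, beside −0.05 and −0.02 over all genes tested. Of all genes tested 22.4% rose and 32.1% fell at 8 h, and 33.4% and 37.1% at 24 h. The tested ligands include Fbn1 and Edil3, which reached 1 FPKM at 24 h alone and so passed the filter through the group where they were high. Fn1, fibronectin and the ligand of the Itga5 receptor, stood at 53.0 and 64.4 FPKM in untreated cells, 92.8 and 107 FPKM at 8 h and then 486 and 503 FPKM at 24 h (log2 difference 3.06 ± 0.1 at 24 h, limma adjusted p = 8.96e-07). Thbs1, thrombospondin and an activator of TGF-β, went from 13.2 and 14.3 FPKM to 215 and 199 FPKM (log2 difference 3.81 ± 0.13, limma adjusted p = 1.06e-06). The matricellular genes Ctgf and Cyr61 rose by 2.76 and 1.71 on the log2 scale (limma adjusted p = 4.91e-06 and 1.25e-06). The 4 that fell at both times were Spp1 (osteopontin), Vcam1 and Icam1, ligands of leukocyte integrins, and Cdh1, E-cadherin and the ligand of the Itgae receptor.

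In infected cells 14 ligands were tested, again including Fbn1 and Edil3, which reached 1 FPKM at 24 h alone. Their calls are no support for a rise. In control cells 9 of the 14 tested ligands rose and 4 fell at 8 h, and 10 rose and 4 fell at 24 h, beside 19.4% and 44.9%, and then 25.5% and 45.1%, of all genes tested. In KD against control cells 3 were higher and 1 lower before treatment, 7 higher and 0 lower after 8 h, with 5 higher and 0 lower after 24 h, where an unadjusted limma p under 0.05 gave 1 lower (Tnc) and 0 lower. The shares over all genes were 10.6% and 9.09% before treatment, 19.3% and 16.5% at 8 h and 16.8% and 11.5% at 24 h. A higher response in KD cells was called for Spp1 and Thbs1 at 8 h and for Spp1 and Cdh1 at 24 h. A lower one was called for Cyr61 at 8 h and for Cyr61 and Ctgf at 24 h. Fn1 was 415 and 942 FPKM in the KD libraries at 24 h and 469 and 541 FPKM in the control libraries, so that the KD libraries lay on either side of the control libraries.

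Lamin B1 was mapped on the same genes by ChIP-seq of chromatin sheared by low sonication, which the paper describes as a fraction enriched in euchromatin. The lists held 4645, 10484 and 7083 peaks for 0, 8 and 24 h of TGF-β, and a gene was counted as lamin B1 + when a peak touched it or the 2500 bp before its start. All 37 members were placed on mm9. Before treatment 11 of them (29.7%) were lamin B1 +, after 8 h 16 (43.2%) and after 24 h 17 (45.9%), against 19.9%, 38.8% and 29.4% of the 21039 placed genes. Of the 18 members tested for expression 10, 13 and 13 were lamin B1 + at the 3 times (55.6%, 72.2% and 72.2%), against 33.6%, 56.5% and 44.1% of all placed genes that were tested. Over all placed genes 4180, 8171 and 6189 were lamin B1 +, of which 3570, 6000 and 4685 were tested for expression. Of the 19 silent members 1, 3 and 4 were lamin B1 +. By the paper's account, heterochromatin can be lost from sequencing here because its fragments stay large. A gene without a peak may therefore still hold lamin B1. The order of the 8 h and 24 h counts depends on the setting, with 14 members at 8 h and 12 at 24 h in lists of equal length and 14 and 10 among peaks at or above the median score. The shares of all placed genes at these settings are not given here. The span counted is longer in longer genes, and gene length was not taken into account. Depth behind the peak lists is unknown, and with 1 library per time no difference between times was tested.

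The members with lamin B1 at all 3 times were 9, namely Itga5, Itgae, Itgav, Itgb1, Itgb4, Itgb5, Itgb7, Lama5 and Lamb2. For 5 of them a peak lay over the start of the gene at each time. The share of all placed genes was worked out for neither count, so they do not set the members apart from other genes. The peak at Itgb1, chr8:131208962-131210451 in untreated cells, had a peak-caller score of 156, and those at 8 and 24 h had scores of 213 and 185. At Itgb5 the scores were 112, 158 and 280, at Itgav 113, 133 and 197, at Itga5 79.1, 111.47 and 128, and at Itgb4 57.7, 74.7 and 64.9. These starts thus include those of chains that rose and of Itgb4, which fell at 24 h.

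Several other peaks counted for a member lay at some distance from its start or beside another gene. The Itgb7 peaks lay over exons 7161 to 7219 bp into the gene, with scores of 71.8, 65.4 and 117 at 0, 8 and 24 h. All Itgae peaks lay within 500 bp of the start of Gsg2, a gene nested in Itgae, and Itgae itself stayed at or below 0.0795 FPKM in parental cells. The peaks centred 10844 and 11029 bp into Lamb2 lay at the start of its neighbour Usp19. Lamb3, positive only in untreated cells, had a peak over an exon 28332 bp from its start. Itga1, Itga6, Lama1 and Lamc1 were among the genes that were lamin B1 + at 8 and 24 h only, and the Itga6 peaks lay at a coding start 41699 and 41850 bp from the annotated 5′ end, with scores of 97.5 and 160. Among tested members Itgb3, Itgb6 and Lamb1 lacked lamin B1 peaks throughout.

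**Figure D5:**
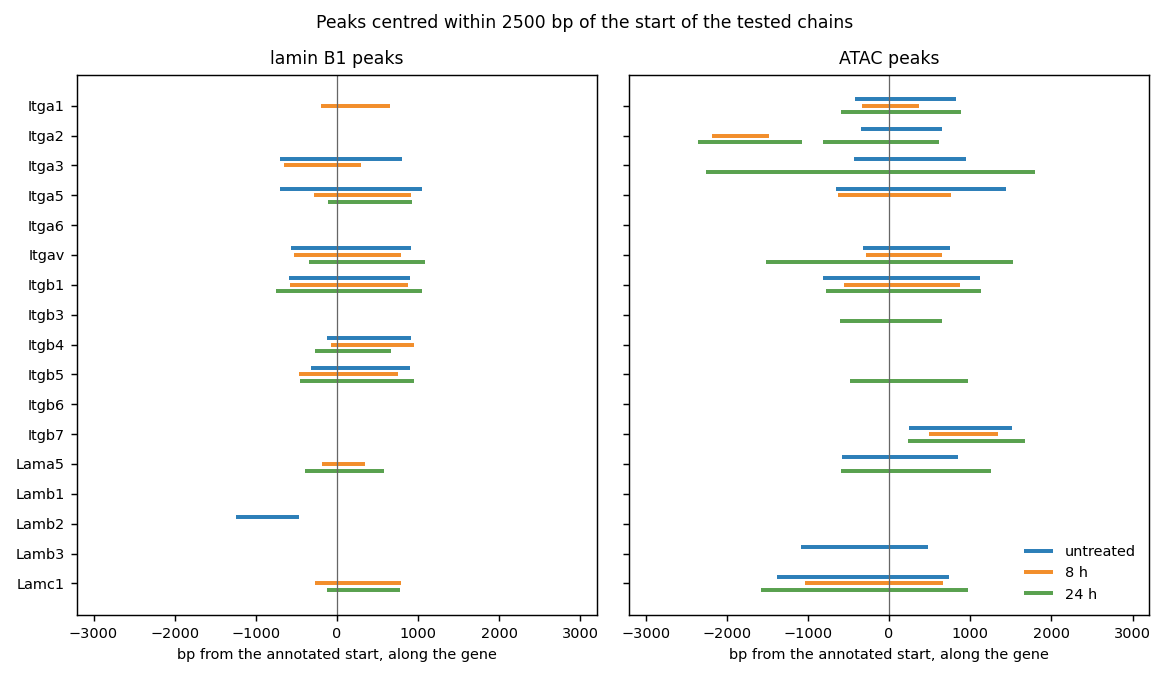
Lamin B1 peaks (left) and ATAC peaks (right) centred within 2500 bp of the annotated start of tested chains, drawn to scale as bars in bp along the gene from the start at 0, with 1 colour each for untreated, 8 h and 24 h cells. Itgav and Itgb1 carry both kinds of peak over the start at all 3 times, and the Itgb7 ATAC peaks lie downstream of its start.

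All members with open chromatin at the start were expressed ones, as were most of all placed genes with an open start. An ATAC peak within 500 bp of the start was present for 10, 6 and 10 members at 0, 8 and 24 h (27.0%, 16.2% and 27.0%), against 30.6%, 25.0% and 47.0% of all placed genes. This gave 55.6%, 33.3% and 55.6% of the 18 tested members against 56.3%, 46.1% and 84.0% of placed genes that were tested. Of all placed genes with such a peak, 5987 of 6436 at 0 h, 4897 of 5260 at 8 h and 8927 of 9896 at 24 h were tested for expression. The lists differ in length, with 9782, 10340 and 33811 peaks at 0, 8 and 24 h, and with lists of equal length 6 members had a promoter peak at 8 h and 4 at 24 h. The share of all placed genes in lists of equal length is not given here. Itga1, Itgav, Itgb1, Itgb7 and Lamc1 had a promoter peak at all 3 times, and the share of all placed genes that did was not worked out. At the Itgb1 start the score of the peak was 265, 140 and 533, and at the Lamc1 start 166, 87.1 and 640. The Itgb7 peaks were centred 883 to 954 bp into the gene, and that at 24 h had a score of 252, when its level was 1.08 and 0.981 FPKM. Itgb3 and Itgb5 had a promoter peak at 24 h only, Itga5 in untreated cells and at 8 h, and Lamb3 in untreated cells only. The 6 members tested for expression with none within this window included Itga6, Itgb4, Itgb6, Lamb1 and Lamb2, of which Itga6 had ATAC peaks at its downstream coding start at all 3 times.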

How the data were processed

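RNA-seq was deposited by the authors as FPKM per gene symbol, in 1 table for parental cells and 1 for infected cells, and lamin B1 ChIP-seq and ATAC-seq as lists of peaks with a score for each peak. The submitters' processing notes name Bowtie, TopHat, Cufflinks and the mm9 build; the methods describe biological duplicates. The tables have no header line, and their columns were taken in the order given in the deposited descriptions. Read counts are not in the files used here, so the depth per library is only estimated, relative to the first library. The parallel ChIPs of a time point were mixed into 1 library by the authors. Hi-C was not analysed here.

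Members were matched by symbol. The values of 1 member, which enters the counts, are not reported here. The members and the gene lists were chosen with earlier results of these data known. Within each table, genes with 1 FPKM or more in 2 or more libraries were tested on log2(FPKM + 1) with limma 3.58.1 (R 4.3.3), with the trend option, in 1 fit per table and with Benjamini-Hochberg adjustment over all genes tested, at a threshold of 0.05. A gene called higher or lower passed this threshold. All tests are two-sided. The procedure was tested on simulated data. Quantile normalization, an added constant of 0.1, no filter, fits of only the groups compared, a replicate block and leaving out each library were the alternatives. The contrast of 24 h with 8 h and the use of any coding start were added after the values were seen.

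Peaks were joined to GENCODE M1 genes on mm9 with Python 3.11.15 (numpy 2.4.6, pandas 2.3.3), a peak counting for a gene if it overlapped the region by 1 bp or more. For promoters the region was 500 bp on each side of the start. Sequences were read from the mm9 genome.

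Library values are given for members called in a contrast with a group mean of at least 5 FPKM, and for tested chains of the main epithelial laminins and integrins. From each list of partners or ligands the 4 called genes with the largest log2 difference at 24 h in parental cells were named. Lims1, the collagen IV chains and genes named because 5 or fewer of a list shared a call were chosen after their values were seen.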

Additional observations from a re-analysis of the deposited data

Results flagged for a closer look

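For 7 members the response to TGF-β at 8 h differed between KD and control cells, and for 4 at 24 h, each by a limma test of the difference itself with Benjamini-Hochberg adjustment. At 8 h the difference in log2 response, KD minus control, was 1.41 for Itgb7, 0.99 for Itga1, 0.66 for Lama3, 0.64 for Lamb3, 0.61 for Itgb6, 0.38 for Itgb4 and 0.34 for Itgb3. At 24 h it was 1.66 for Itgb7, 0.87 for Lamb3, 0.62 for Itgb6 and 0.48 for Itgb4. The calls of Lamb3 at both times and of Itgb7 at 24 h held under each alternative fit and without any single library. At 24 h the call of Itgb6 was lost in the fit of only the groups compared (limma adjusted p = 0.0533). At 8 h the call of Itga1 was also lost with no filter (limma adjusted p = 0.0567), and that of Lama3 with an added constant of 0.1 (limma adjusted p = 0.0764). Lama3 passed the filter on low values only through the KD libraries at 8 h, so that its value is a description and no support for a difference in response.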

How the results depend on the processing

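No called log2 difference of a member changed sign. Of the results of single members, called or not, 205 stayed on the same side of the threshold and 1 call was lost with an added constant of 0.1, 201 were the same and 5 lost with no filter, 203 were the same, 2 lost and 1 gained under quantile normalization, and 179 were the same, 10 lost and 9 gained in fits of only the groups compared. With each library left out in turn, 886 were the same, 71 were lost and 15 gained. Counts of called members without each library ran from 16 to 16 in parental cells at 8 h and at 24 h and 14 to 16 between 8 and 24 h, 16 to 16, 18 to 18 and 15 to 15 for the same contrasts in control cells, 4 to 8, 8 to 11 and 6 to 11 for KD against control at 0, 8 and 24 h, and 1 to 9 and 3 to 8 for the difference in response at 8 and 24 h. For KD against control, fits of only the groups compared called 615 genes higher and 494 lower before treatment. They called 2969 and 2686 at 8 h and 608 and 301 at 24 h. Among the members such fits gave 4 calls for KD against control before treatment, 17 at 8 h in place of 12 and 5 at 24 h. With a change of at least 2-fold also required, the counts were 4, 8 and 4 in parental cells, 8 at 8 h and 7 between 8 and 24 h in control cells, 1, 1 and 0 for KD against control and 1 and 1 for the difference in response. The share of all genes at 2-fold was not worked out. The shRNA libraries share replicate numbers. Between groups, the differences of the 2 libraries correlated with a range of −0.135 to 0.368, highest for control and KD cells at 24 h. As 2 of 15 group pairs had a correlation above 0.1, most groups showed little shared deviation by replicate number. Whether libraries of the same number were made together cannot be told from these correlations. With the replicate numbers as a block 16, 18 and 15 members were called in control cells, 10, 12 and 9 for KD against control and 7 and 4 for the difference in response. Over all genes the block called 2207 higher and 5099 lower in control cells at 8 h and 2912 and 5130 at 24 h. From 8 h to 24 h it called 2798 and 2753. For KD against control it called 1174 and 966, 2163 and 1840, and 1821 and 1238 at 0, 8 and 24 h. For the difference in response it called 166 and 118 at 8 h, in place of 281 and 184, and 215 and 162 at 24 h, in place of 313 and 227. The block gained Lamb1 before treatment (limma adjusted p = 0.0497) and lost Lamb2 at 24 h (limma adjusted p = 0.05). In untreated cells 7 members were lamin B1 + within 500 bp or 2500 bp of the start, or within 500 bp of any coding start, and at 24 h 9, 10 and 10. The lamin B1 + count, which was higher at 24 h than at 8 h with the gene body (17 and 16), was lower at 24 h than at 8 h in these windows (12, 12 and 13 at 8 h), with lists of equal length (12 and 14) and with the median score (10 and 14), and the promoter ATAC count was lower at 24 h than at 8 h with lists of equal length (4 and 6). Peaks at or above the median score left 10 lamin B1 + members at 24 h and 6 and 3 with a promoter ATAC peak at 0 and 8 h, and lists of equal length left 4 at 24 h. The shares of all placed genes at these settings are not given here, so these counts do not set the members apart from other genes. The cause of the changes between settings was not tested. FPKM without counts sets no detection limit for silent chains, and 2 libraries per group limit all tests.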
